A study of Mus musculus with 2 samples.

Results

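Mir126a, Mir143 and Mir145a are miRNA genes known as markers of blood vessel cells, and they are 3 of the 1973 miRNA genes counted in mouse embryonic facial prominence, the tissue that builds the face and jaws. They were chosen by gene identifier and not by a rule on their counts, although earlier results of these data were known. Mir126a marks endothelium, the inner lining of vessels, and Mir143 and Mir145a form a cluster active in smooth muscle and mesenchyme. All 3 genes were detected, which here means at least 10 reads in each library. Tissue was collected at embryonic day 15.5 from strain B6NCrl with both sexes pooled, and the labels name no mutation or treatment. All libraries belong to 1 group. Replicate 1 pooled tissue of 78 embryos, replicate 2 drew on 62, and the labels number them as biological replicates, so the spread between embryos was averaged within each pool and was not measured.

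A miRNA is cut from a hairpin transcript and binds mRNAs mainly through its seed, the stretch from base 2 to base 8, which lowers the output of the bound mRNA. miR-126 is carried within Egfl7, a gene for a protein secreted by endothelial cells, and is known to maintain vessel integrity by dampening inhibitors of growth factor signalling such as Spred1. miR-143 and miR-145 are known to promote the contractile state of vascular smooth muscle and are induced by serum response factor and myocardin. Mesenchymal cells outside vessel walls also use the Mir143 cluster, so it is not a vessel marker in the strict sense.

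The hairpin of Mir126a is shown because this gene had the highest counts of the set. A second annotated hairpin, Mir126b, also lies on the opposite strand of the same bases. Sequences are from RefSeq on GRCm38.p6, read 5′ to 3′, and 1 of the 3 genes was found in that table. Its mature miR-126a-3p is listed there, without an entry for miR-126a-5p from the other arm of the hairpin. Capitals mark miR-126a-3p within the hairpin (bases 46 to 67) and the seed in each mature miRNA. Mir126a occupies chr2:26591357-26591429 on the plus strand.
Mir126a hairpin: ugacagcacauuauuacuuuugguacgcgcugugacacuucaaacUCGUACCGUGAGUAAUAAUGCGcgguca
mmu-miR-126a-3p: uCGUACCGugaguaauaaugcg
mmu-miR-126b-5p: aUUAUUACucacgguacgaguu
mmu-miR-126b-3p: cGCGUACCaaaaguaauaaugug
The 58-base hairpin of Mir126b is the exact reverse complement of a stretch within the Mir126a hairpin, and miR-126b-5p shares 19 base positions with miR-126a-3p. None of the other mature miRNAs among 1679 in the table shares the seed of miR-126a-3p. The deposited counts are given per hairpin, so the arms of a hairpin were not measured apart.

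The libraries held 2978463 reads assigned to miRNA genes in replicate 1 and 6408008 in replicate 2, which was 48.2% ± 3.89 of their reads (SD, n = 2). Levels are given as CPM, assigned reads scaled to a common library size with TMM factors. The limit that a count of 0 allows, 3 reads, was 1.00 CPM in replicate 1 and 0.470 CPM in the deeper replicate 2. Of the 1973 genes, 333 were detected. No member shares a stretch of 20 bases with another hairpin outside its own locus, whereas 11 of the 25 other vessel-linked genes described further on do. Markers of the tissue's other cell types were present, with all 7 epithelial genes, 2 of 2 cartilage genes and 3 of 3 mesenchymal genes detected, and 4 of the 8 counted striated muscle genes. Of the undetected muscle genes, Mir1a-1, Mir133a-1 and Mir133a-2 share a stretch of 20 bases with other hairpins, so their counts may be too low.

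Mir126a was among the miRNA genes with the most assigned reads. It had 72200 reads (24156 CPM) in replicate 1 and 181442 reads (28414 CPM) in replicate 2, a mean of 26285 ± 3011 CPM (SD, n = 2). This placed it at rank 11 of all genes in replicate 1 and at rank 8 in replicate 2. It supplied 2.42% of counts in replicate 1 (95% Clopper-Pearson interval 2.41 to 2.44) and 2.83% in replicate 2 (2.82 to 2.84), where the intervals, like all intervals here, cover counting error only. Ranks and shares rest on assigned reads. Reads that mapped to several places (30.2% ± 0.649 of reads, SD, n = 2) were given to no gene, so genes that share sequence may rank too low. In this bulk tissue, more cells of a type and more of the miRNA per cell cannot be told apart.

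The Mir126a hairpin lies within Egfl7 on the same strand. It is intronic in 8 of the 9 annotated Egfl7 transcripts that span it and exonic in 1, a transcript with a retained intron. It is also intronic in 1 transcript of Gm20532, an annotated gene that overlaps Egfl7. Almost all reads at the hairpin came from the strand of Mir126a, with 72193 in replicate 1 and 181418 in replicate 2. Mir126b is not among the counted genes, so reads from its strand appear as opposite-strand reads of Mir126a and are part of its either-strand count.

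Mir143 was also abundant and was the most even of the 3 between the pools. It had 52566 reads (17587 CPM) in replicate 1 and 114827 reads (17982 CPM) in replicate 2, a mean of 17785 ± 279 CPM (SD, n = 2). Its rank was 14 in both libraries, and it supplied 1.76% of counts in replicate 1 (1.75 to 1.78) and 1.79% in replicate 2 (1.78 to 1.80). Every read lay on the strand of the gene.

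Mir145a, its cluster partner, stood far lower. It had 863 reads (289 CPM) in replicate 1 and 1591 reads (249 CPM) in replicate 2, a mean of 269 ± 28.0 CPM (SD, n = 2). Its ranks were 145 and 152, and its share of counts was 0.0290% (0.0271 to 0.0310) in replicate 1 and 0.0248% (0.0236 to 0.0261) in replicate 2. Its counts were well above the 3-read limit in both libraries. Mir145b, a separate gene that carries a related name, had 0 reads in both libraries, below the limit of 3 reads.

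**Figure D1:**
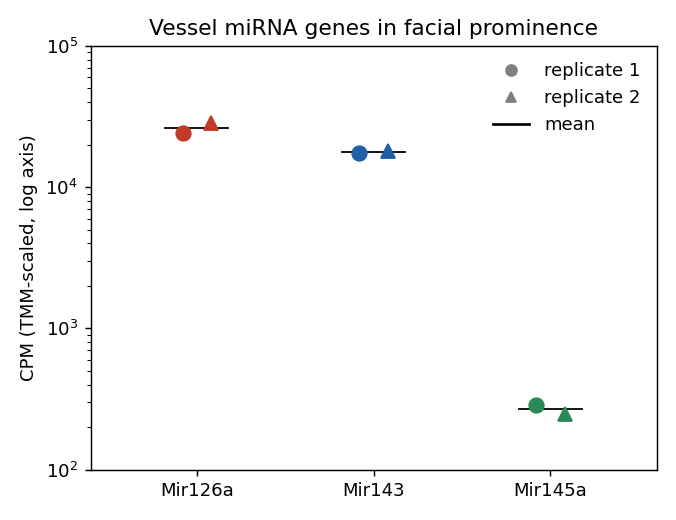
CPM of Mir126a, Mir143 and Mir145a (TMM-scaled, log axis) in replicate 1 (circles) and replicate 2 (triangles), with the mean as a line. Mir126a (24156 and 28414 CPM) and Mir143 (17587 and 17982 CPM) lie close together, while Mir145a (289 and 249 CPM) lies far below both.

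The order of the levels was Mir126a, then Mir143, then Mir145a in both libraries, and no values of the 3 genes overlapped. Reads of Mir126a exceeded those of Mir143 by 1.37-fold in replicate 1 (95% exact binomial interval 1.36 to 1.39) and by 1.58-fold in replicate 2 (1.57 to 1.59), a mean of 1.48 ± 0.146 (SD, n = 2). Since a read of this assay covers a mature miRNA, counts were not divided by gene length. Per base of annotated hairpin (73 bases for Mir126a, 63 for Mir143 and 70 for Mir145a) the same ratio was 1.27 ± 0.126 (SD, n = 2). Together the 3 genes held 4.22% of counts in replicate 1 and 4.65% in replicate 2.

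Mir143 and Mir145a lie on the minus strand of chromosome 18, with Mir143 at 61649196 to 61649258 and Mir145a downstream of it at 61647825 to 61647894 (GENCODE M21 on mm10). Their hairpins are 1301 bases apart, and neither overlaps another annotated gene. The annotated end of Carmn, a long noncoding RNA gene on the same strand that is known in smooth muscle and cardiac cells, lies 366 bases upstream of Mir143. Bvht, a long noncoding RNA gene known from heart development, lies on the other strand 352 bases from Mir145a. Positions come from a later annotation than the one used for counting, in which the identifier versions of Mir143 and Mir145a differ, so the exact ends counted may differ from these.

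Although the Mir143 and Mir145a hairpins are neighbours on the same strand, the 2 genes contributed very unequal counts. Mir143 exceeded Mir145a by 60.9-fold in replicate 1 (95% exact binomial interval 56.9 to 65.2) and by 72.2-fold in replicate 2 (68.7 to 75.9), a mean of 66.5 ± 7.96 (SD, n = 2). The intervals of the libraries did not overlap, and the imbalance was far larger than its spread between replicates. Mir143 made up 98.4% of the reads of the pair in replicate 1 and 98.6% in replicate 2. Per base of hairpin the ratio was 73.9 ± 8.85 (SD, n = 2).

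To set this imbalance beside other clusters, all adjacent miRNA genes on the same strand with starts within 10 kb and both genes detected were compared, which gave 95 pairs. The higher partner exceeded the lower by a median of 7.68-fold (log2 2.94), and 39 of the pairs differed by over 10-fold in mean CPM. By the same measure Mir143 and Mir145a differed by 66.1-fold (log2 6.05), which ranked 14 of 95. The pairs with the largest imbalance were Mir449a over Mir449b (log2 9.55), Mir20a over Mir19b-1 (log2 8.93) and Mir99a over Mirlet7c-1 (log2 8.23). Of the genes just named, Mir19b-1 and Mirlet7c-1 share a stretch of sequence with other hairpins and can lose reads to them. Mir143 and Mir145a share no such stretch with hairpins outside their own locus. Whether Mir143 and Mir145a lose reads to other parts of the genome was not tested. Among the 61 pairs in which neither gene shares such a stretch, 3 had a larger imbalance than Mir143 and Mir145a. The pairs include several from the same clusters and are not independent.

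**Figure D2:**
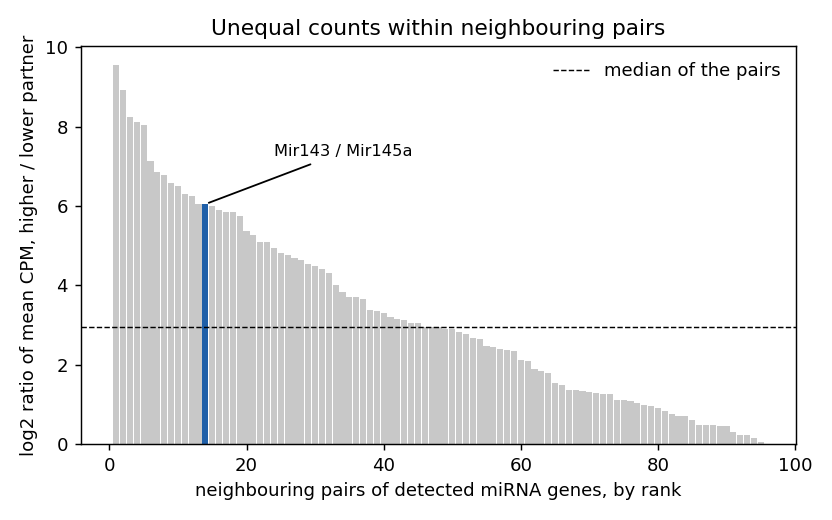
Log2 ratio of the mean CPM of the higher over the lower partner for 95 neighbouring pairs of detected miRNA genes, ordered by size, with the median as a dashed line. Mir143 over Mir145a (log2 6.05, blue bar) ranks 14, above the median of 2.94.

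The replicates were then compared gene by gene, dividing the CPM of replicate 2 by that of replicate 1. With 1 library in each arm there are no residual degrees of freedom, so no p-value is given, and the intervals compare these libraries and not populations of embryos. None of the 3 genes differed by over 1.5-fold, where 10.8% of the 333 detected genes did. Most of those genes had few reads. The share was 4.45% among genes with at least 100 reads in each library, which all 3 members reached, and it came to 1 of 25 genes at 10000 CPM or more and 5 of 96 genes between 100 and 1000 CPM. Mir126a had the higher level in replicate 2, with a log2 ratio of 0.23 (95% exact binomial interval 0.22 to 0.25). Mir143 had a log2 ratio of 0.03 (0.02 to 0.05). Mir145a was higher in replicate 1, with a log2 ratio of −0.21 (−0.33 to −0.09). The counting interval lay to one side of equal levels for all 3 genes, as it did for 55.9% of detected genes, so this is the common case at this depth.

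The size of each member's ratio was set beside those of genes of similar level. Among the 25 genes with a mean of 10000 CPM or more, the median size of the log2 ratio was 0.16. Of these genes, 19 had a ratio smaller in size than that of Mir126a and 5 had a larger one, while 4 had a smaller one than Mir143. Among the 96 genes between 100 and 1000 CPM the median size was 0.19, with 50 genes nearer to equal than Mir145a and 45 farther from it. The log2 ratios of Mir143 and Mir145a differed from each other by 0.24, close to the median of 0.25 over the 95 neighbouring pairs.

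**Figure D3:**
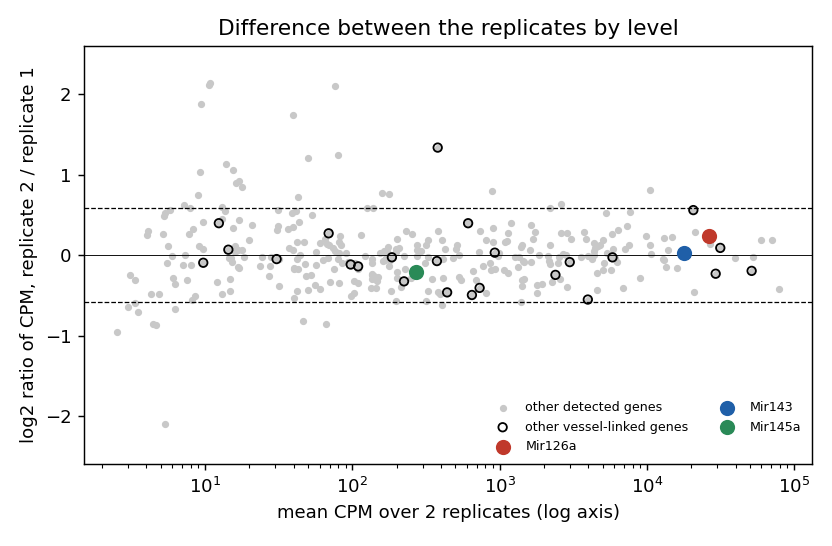
Log2 ratio of CPM (replicate 2 to replicate 1) against mean CPM (log axis) for the 333 detected genes, with dashed lines at 1.5-fold. Mir126a (0.23), Mir143 (0.03) and Mir145a (−0.21) lie within the lines, as do all but 1 of the other detected vessel-linked genes (open circles). Of all 333 genes, 36 (10.8%) lie outside the lines.

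Levels of other cell types' markers also differed between the pools, and their part in the ratios of the vessel genes was not tested. The erythroid genes (3 of 4 counted, none at 0) had a summed level of 225 CPM in replicate 1 and 239.9 in replicate 2, a log2 ratio of 0.09. Its genes differed in direction, with Mir451a at 0.58, Mir144 at −0.86 and Mir486 at −0.14. The leukocyte genes (4 of 5 counted, none at 0) summed to 3566 and 4019 CPM, a log2 ratio of 0.17. Mir342 made up most of that sum (2356 and 2853 CPM, log2 ratio 0.28). Of the 4 genes, 3 were higher in replicate 2 and 1, Mir142b, was lower (−0.19). Mir126a was 107-fold above the erythroid sum in replicate 1 and 118-fold in replicate 2, and 6.77-fold and 7.07-fold above the leukocyte sum. The epithelial sum was 152004 CPM in replicate 1 and 128519 in replicate 2, a log2 ratio of −0.24. Mir203 was the largest part of that sum (90596 and 67445 CPM, log2 ratio −0.43). It was 1 of 3 epithelial genes lower in replicate 2, as was Mir205 (−0.46). The other 4 of the 7 were higher in replicate 2 like Mir126a, among them Mir429 (0.29) and Mir200b (0.26). The striated muscle sum was 8091 CPM in replicate 1 and 6087 in replicate 2 (log2 ratio −0.41). Nearly all of it came from Mir206 (7861 and 5896 CPM, log2 ratio −0.42), and all 4 detected muscle genes were lower in replicate 2. Of the 8 counted muscle genes, 2 were at 0 in both libraries and 4 share sequence with other hairpins. Mir143 stood at 1.03 times the mesenchymal sum in replicate 1 and 1.17 times in replicate 2. Nearly all of that sum came from Mir214 (16852 and 15093 CPM, log2 ratio −0.16). The other 2 of the 3 genes share sequence with other hairpins and were higher in replicate 2. Their counts may be too low, so the mesenchymal sum may be too low and the ratios of Mir143 to it too high.

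Other miRNA genes linked to vessels in the literature spanned a wide range of levels. Of a list of 31 such genes, 29 were counted and 28 detected, and Mir145b was the gene that was counted and not detected. Without the 3 members, 3 of 25 detected genes stood above Mir126a in mean CPM and 9 stood below Mir145a. Some of those below Mir145a share sequence with other hairpins, so their levels may be too low. The genes above Mir126a were Mir23b (51442 ± 4939 CPM) and Mir23a (29316 ± 3320 CPM), known to promote angiogenesis, and Mir322 (31509 ± 1378 CPM), the mouse counterpart of the hypoxia-responsive human miR-424 (all SD, n = 2). Mir23a and Mir23b share sequence with each other, so their unique counts are uncertain, and Mir23a was below Mir126a in replicate 2 (26969 against 28414 CPM). Mir100 (20671 ± 5597 CPM), a repressor of mTOR, and Mir130a (18457 ± 26.3 CPM), known in human endothelial cells to lower antiangiogenic homeobox genes, lay between Mir126a and Mir143 in mean CPM, although Mir100 was below Mir143 in replicate 1 (16714 against 17587 CPM). Next below Mir143 in this list was Mir21a, at 5839 ± 80.6 CPM (SD, n = 2).

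Of the lower genes, 4 are given as examples chosen after their values were seen. Below Mir145a were Mir221 (224 ± 35.7 CPM) and Mir222 (109 ± 7.51 CPM), a pair known to restrain the Kit receptor in human endothelial cells, and Mir155 (69.0 ± 9.13 CPM), a miRNA of inflammatory activation (all SD, n = 2). Mir210, the miRNA most closely tied to hypoxia, stood at 731 ± 145 CPM (SD, n = 2).

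Of all 333 detected genes, 10.8% were over 1.5-fold apart between the replicates, as were 4.45% of genes with at least 100 reads in each library. Among the 25 other vessel-linked genes, 24 lay within 1.5-fold. The exception was Mir10a, at 215 CPM in replicate 1 and 544 CPM in replicate 2 (log2 ratio 1.34), while Mir100 was just inside at 0.56. The median log2 ratio of the 25 genes was −0.07, against −0.02 over all 333 detected genes. Ratios were above 0 for 9 of them and below 0 for 16, against 155 and 178 of all detected genes. The counting interval lay above 0 for 5 of the 25, below 0 for 10 and included 0 for 10, and over all detected genes it lay above 0 for 92 and below 0 for 94.

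**Figure D4:**
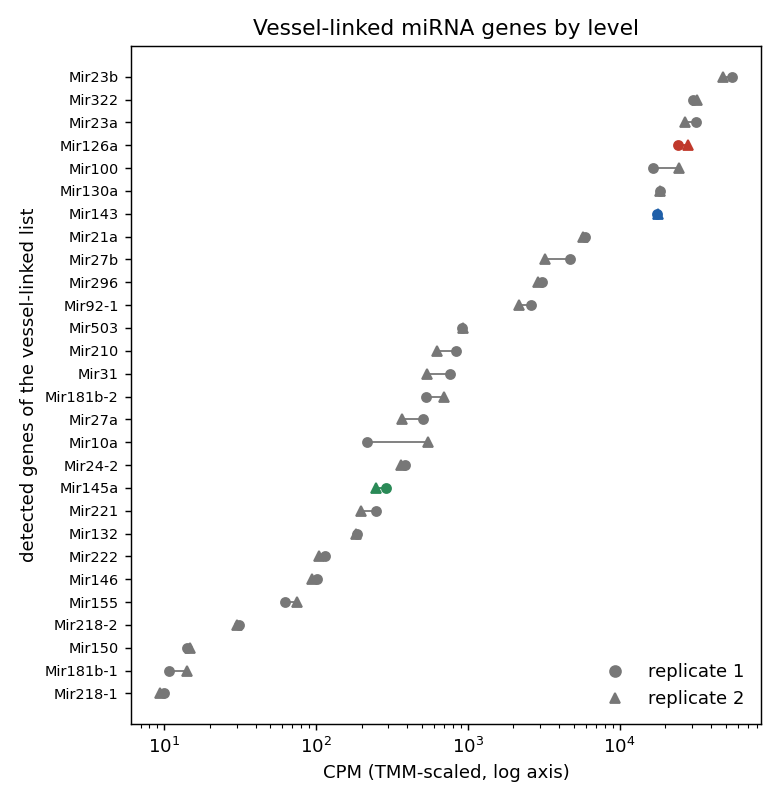
CPM (TMM-scaled, log axis) of the 28 detected genes of the vessel-linked list in replicate 1 (circles) and replicate 2 (triangles), ordered by mean. Mir126a (red) lies just below Mir23a, Mir143 (blue) just below Mir130a, and Mir145a (green) lies among the low genes between Mir24-2 and Mir221.

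The genes most like each member in level were found by the distance between log2 CPM values over the 2 libraries. Nearest to Mir126a was Mir26b (25682 and 28162 CPM, distance 0.09), followed by Mir322 (0.39) and Mir23a (0.40). Nearest to Mir143 was Mir130a (18439 and 18476 CPM, distance 0.08), followed by Mir214 (0.26), a mesenchymal gene, and Mir429 (0.40), an epithelial gene. Nearest to Mir145a were Mir340 (0.15), Mir494 (0.17) and Mirlet7a-2 (0.20). With 2 libraries this measure ranks genes by level and carries little information on shared variation.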

How the data were processed

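Small RNA of 2 pools was sequenced, and the counts of reads per miRNA gene that the authors deposited are raw counts on mm10 with GENCODE M4, per the labels and the deposited file lists. Which aligner and counter were used is not given in the sources used here. Each gene has counts on either strand, on its own strand and on the opposite strand; the first was used. Lines that name no gene (51.8% ± 3.89 of reads, SD, n = 2) stayed out of totals. A share of 30.2% ± 0.649 of reads mapped to several places and was given to no gene.

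Names and positions came from GENCODE M21 on the same build, matched by identifier without version (1894 of 1973 genes), and 4 list names were matched through RefSeq synonyms. Totals were scaled with TMM in edgeR 4.0.16 (R 4.3.3), from genes with at least 10 reads in each library. Intervals are 95% exact binomial intervals, checked on simulated data. PCR reads without molecular identifiers are not independent molecules, so intervals and limits cover counting error only. Python 3.11.15, scipy 1.17.1 and matplotlib 3.10.9 were used. Alternatives were total counts, DESeq2 1.42.0 size factors, own-strand reads, other filters, other denominators, length and left-out replicates. The members, lists and rules were chosen with earlier results of these data known. Named genes were the members, the 3 genes nearest to each in level, vessel-linked genes, neighbours within 10 kb and the 3 most unequal neighbouring pairs. Of the list, the 6 highest genes are described, and others named were picked after their values were seen.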

Additional observations from a re-analysis of the deposited data

Results flagged for a closer look

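Reads on the strand opposite to Mir126a numbered 7 in replicate 1 and 24 in replicate 2, above the limit of 3 reads that a count of 0 allows. They are part of the Mir126a count on either strand, and stood out because the opposite strand, which carries Mir126b, was not used as a measurement of its own. They made up 0.00970% of the reads at the hairpin in replicate 1 and 0.0132% in replicate 2. Among the 25 genes with a mean of 10000 CPM or more, 18 had no opposite-strand read in either library, 1 had a larger opposite-strand share than Mir126a, and 5 others had a smaller one above 0. Whether these reads come from Mir126b was not tested.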

How the results depend on the processing

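Of 67 values under alternatives, 51 stayed within the replicate spread, the counting interval or 1.5 times the main count, and 16 did not. Direction was checked only for the log2 ratios of the 3 members, and none of these changed sign. A further 10 values, levels and ratios with a replicate left out, lie within 1 SD of the mean by construction and are not counted. DESeq2 size factors gave log2 ratios of 0.26 for Mir126a and 0.0604 for Mir143, and 2 vessel-linked genes over 1.5-fold apart in place of 1. The same factors gave a median log2 ratio over all detected genes of 0.00993, against −0.0184 in the main setting. Mean CPM of Mir143 was 18397 with own-strand reads and 19313 with Mir203 left out of the totals. With all reads of the library as denominator, the CPM was 12621 for Mir126a, 8576 for Mir143 and 130.4 for Mir145a. Per base of hairpin, Mir126a over Mir143 was 1.27. Genes over 1.5-fold apart numbered 182 (32.5%) with no filter beyond 1 read and 11 (4.45%) with at least 100 reads in each library, where fewer genes were compared. Neighbouring pairs more unequal than Mir143 and Mir145a numbered 8 with at least 100 reads, where the median log2 ratio was 2.46, and 3 without shared sequence. Reads of the Mir126b strand are already summed in the count of Mir126a on either strand, and own-strand reads leave them out (log2 ratio 0.23). With 2 libraries, and pools of embryos, the spread between replicates is poorly known, and ratios of the pools cannot be tested.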
